A study of Mus musculus with 32 samples.

Results

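Sites of HNF4A binding were described at the genes of the HNF4 factors themselves, Hnf4a and Hnf4g, in jejunal intestinal epithelial cells (IECs) of mice given a high-fat meal. The peaks of 8 HNF4A chromatin immunoprecipitation (ChIP-seq) lists were merged wherever they shared at least 1 bp, which gave 45552 sites across the genome. Of these, 39 lay within the 2 gene bodies or 50 kb either side, 27 in the Hnf4a window and 12 in the Hnf4g window. All mice were male C57BL/6J, 10 to 12 weeks old, and IECs were collected 2 hours after gavage of chicken egg yolk liposomes. The GF+HFM group was germ-free (4 mice), and the CV+HFM group was made of germ-free animals colonized with a conventional microbiota for 14 days (4 mice). There was 1 list per mouse. The preparations hold mostly villus epithelium, with some crypt and mesenchymal cells, so a site called less often cannot be assigned to fewer cells with the site bound or to less binding per cell.

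HNF4A and HNF4G are closely related nuclear receptors that bind the same DNA element, a direct repeat of the hexamer AGGTCA with 1 base between the copies, often with the core CAAAGTCCA. Both are present in enterocytes, where they maintain genes of the brush border and of lipid uptake, transport and oxidation, and HNF4G is abundant in the gut. Hnf4a is transcribed from a pair of alternative promoters that give proteins with different N termini. The upstream promoter P2 is used in pancreas and gut, and the downstream promoter P1 in liver, kidney and gut. Binding of HNF4 factors at their own genes is one way in which such factors can set their own level. No RNA or protein is measured in these lists.

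Hnf4a (ENSMUSG00000017950.9) occupies chr2:163332544-163398646 and Hnf4g (ENSMUSG00000017688.8) occupies chr3:3508030-3659775, both read from the plus strand (mm9, GENCODE M1). Sites were numbered in genome order in each window. The reference sequences below are those under the peaks that most libraries shared at the sites on which the description turns. Where more than 1 segment was shared by the most libraries, the longest was used. That of Hnf4a site 18 was extended on both sides to 100 bases. All sequences are printed for the plus strand. Capitals mark a match of at most 1 mismatch to CAAAGTCCA on either strand or, in Hnf4a site 18, a match of at most 2 mismatches to the AGGTCA repeat. Such a match describes the letters and is not evidence of a contact.

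The site just before the P2 start (Hnf4a site 4, chr2:163332219-163332468) and the site in the first intron of the transcript Hnf4a-202 (Hnf4a site 8, chr2:163363312-163363458) are shown as sites within 1 kb of annotated Hnf4a starts, and Hnf4a site 10 (chr2:163367447-163367594) as the widest site between P2 and P1.
Hnf4a site 4: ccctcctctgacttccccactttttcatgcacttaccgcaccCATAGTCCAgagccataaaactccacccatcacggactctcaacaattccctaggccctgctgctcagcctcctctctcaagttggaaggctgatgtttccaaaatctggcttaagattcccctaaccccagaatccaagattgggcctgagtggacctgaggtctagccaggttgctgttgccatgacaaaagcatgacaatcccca
Hnf4a site 8: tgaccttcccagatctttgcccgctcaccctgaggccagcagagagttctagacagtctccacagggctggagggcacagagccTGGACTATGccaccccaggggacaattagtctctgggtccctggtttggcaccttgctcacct
Hnf4a site 10: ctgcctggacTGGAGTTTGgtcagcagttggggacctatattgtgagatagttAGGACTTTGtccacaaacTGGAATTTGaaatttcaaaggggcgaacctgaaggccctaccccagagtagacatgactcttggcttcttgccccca

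The sites downstream of Hnf4a are shown because they had the highest mean GF+HFM width percentiles in the Hnf4a window. Hnf4a site 18 (chr2:163400283-163400382) was called in all 8 lists and Hnf4a site 23 (chr2:163419732-163419887) in 7.
Hnf4a site 18: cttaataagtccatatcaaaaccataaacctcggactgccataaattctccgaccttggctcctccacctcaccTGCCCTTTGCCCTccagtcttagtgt
Hnf4a site 23: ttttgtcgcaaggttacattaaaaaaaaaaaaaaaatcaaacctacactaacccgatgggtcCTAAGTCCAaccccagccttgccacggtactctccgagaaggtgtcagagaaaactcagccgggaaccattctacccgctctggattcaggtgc

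For Hnf4g, the site over the internal start is shown from its first coding base (Hnf4g site 12, chr3:3634212-3634370), together with the site of the highest mean GF+HFM width percentile in the window (Hnf4g site 8, chr3:3618369-3618668).
Hnf4g site 12: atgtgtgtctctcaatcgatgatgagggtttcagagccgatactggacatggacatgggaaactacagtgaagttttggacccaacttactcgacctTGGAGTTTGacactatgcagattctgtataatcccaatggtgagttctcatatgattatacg
Hnf4g site 8: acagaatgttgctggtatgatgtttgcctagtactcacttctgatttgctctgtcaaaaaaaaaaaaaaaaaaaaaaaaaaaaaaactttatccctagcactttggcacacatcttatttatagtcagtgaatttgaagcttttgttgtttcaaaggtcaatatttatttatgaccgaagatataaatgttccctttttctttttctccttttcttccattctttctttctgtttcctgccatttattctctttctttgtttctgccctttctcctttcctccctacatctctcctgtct

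At the P2 start of Hnf4a, a peak was called in every GF+HFM list and in no CV+HFM list. Hnf4a site 4 (chr2:163332159-163332533) ended 11 bp before the first annotated start, that of Hnf4a-002, and 141 bp before that of Hnf4a-203. Its peaks were 291, 315, 352 and 374 bp wide in GF+HFM replicates 1 to 4. Because the lists give no peak height, peaks were placed by their width percentile. This is the rank of the width from the narrowest, ties averaged, as a percent of the peaks of the same list. These 4 peaks stood at 44.2, 55.2, 38.8 and 34.0%. They were thus of middling width in lists where the site was called. The letters CATAGTCCA, 1 mismatch from the HNF4 core, occurred in the shared segment of Hnf4a site 4 and again, on the minus strand, in that of Hnf4a site 8.

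No site lay within 1 kb of the 3 P1 starts, those of Hnf4a-003, Hnf4a-001 and Hnf4a-201. The nearest site downstream of Hnf4a-001 was Hnf4a site 11, 3236 bp away, called in GF+HFM replicate 3 alone. Its 204 bp peak had the narrowest width in that list, at a width percentile of 1.32%. The same peak lay 340 bp after the start of Hnf4a-004. The nearest site upstream of Hnf4a-001 was Hnf4a site 10, which ended 4962 bp before it. The 2 Hnf4a promoters of RefSeq (GRCm38.p6 table), placed by their sequence in mm9, gave the same picture, with Hnf4a site 4 ending 60 bp before the upstream start and the nearest site 3268 bp after the downstream one. A promoter entry for Hnf4g was not used here. Calls are limited by depth, which is unknown for these lists, so binding at P1 below the threshold of the peak caller was not detectable.

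Between P2 and P1, 6 sites lay in the first intron of Hnf4a-002. Hnf4a site 10 (chr2:163367223-163367961) was the widest of them. It was called in 7 of 8 lists, and the width percentiles were 84.7, 83.0, 67.3 and 81.2% in GF+HFM replicates 1 to 4 and 76.2, 27.8 and 80.8% in CV+HFM replicates 1 to 3, with no peak in CV+HFM replicate 4. The CV+HFM replicates 1 and 3 thus fell within the range of the GF+HFM replicates and replicate 2 below it. The segment shared by its 7 peaks holds 3 matches to the HNF4 core with 1 mismatch each. Hnf4a site 6 (chr2:163338474-163339031), 5800 bp into the gene from the start of Hnf4a-203, was called in all 4 GF+HFM lists at width percentiles of 39.6, 29.1, 26.2 and 63.7%, and in no CV+HFM list. Hnf4a site 8 (chr2:163363272-163363601), 517 bp after the start of Hnf4a-202, was called in GF+HFM replicates 1, 2 and 4 at 43.9, 6.69 and 1.22%, and in no CV+HFM list. Its peak in GF+HFM replicate 4 had the narrowest width of that list, 223 bp. A non-coding gene on the opposite strand, 0610008F07Rik, starts inside Hnf4a site 10 and runs back over the other sites of this intron and Hnf4a site 4, so they cannot be assigned to Hnf4a by position alone.

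**Figure D1:**
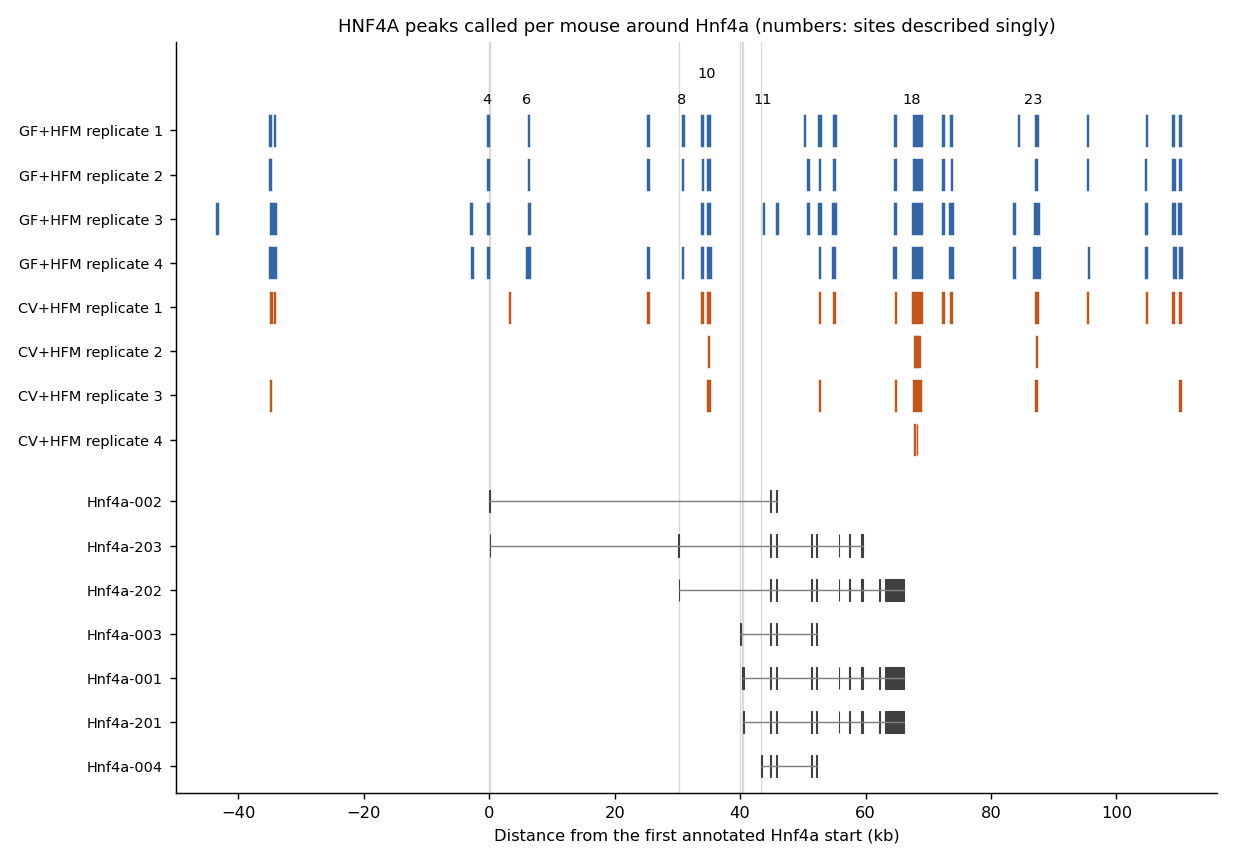
Peaks called in each list (bars, blue for GF+HFM and orange for CV+HFM) and the 7 annotated Hnf4a transcripts (grey, exons as boxes) against the distance from the first annotated start in kb, with the numbers of the sites described singly. Grey vertical lines mark the annotated starts. Hnf4a site 4 stands at the first start in the 4 GF+HFM lists only, no peak stands at the P1 starts, and Hnf4a site 18 is the one site present in all 8 lists.

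The site that stood out at Hnf4a lay past its 3′ end. Hnf4a site 18 (chr2:163399923-163401585) began 1277 bp after the last annotated exon and 27000 bp after the start of Hnf4a-001, and it was the one site of the 39 that all 8 lists called, 2.56% of them beside 7.56% of all merged sites. Its widest peak measured 1421, 1367, 1541 and 1590 bp in GF+HFM replicates 1 to 4 and 1499, 288, 1170 and 114 bp in CV+HFM replicates 1 to 4. CV+HFM replicate 1 lay within the GF+HFM range, replicate 3 somewhat below it, and replicates 2 and 4 far below it. In rank this was the 21st to 332nd widest peak in the 6 lists where it was called as 1 peak, at width percentiles of 99.0 to 99.9%. In CV+HFM replicates 2 and 4, which had the shortest lists, the site was broken into 3 and 2 peaks, and the widest stood at 86.4 and 55.5%.

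The difference of Hnf4a site 18 between conditions did not pass a test in either measure. The width was 1480 ± 103 bp in GF+HFM and 768 ± 672 bp in CV+HFM (SD, n = 4 each; exact permutation test, two-sided, p = 0.0857), and the width percentile was 99.6 ± 0.39% and 85.4 ± 20.9% (exact permutation test, p = 0.40). With limma on normal scores of width rank over the 3445 sites called in all 8 lists, Hnf4a site 18 had a CV+HFM minus GF+HFM difference of -0.60 (SE 0.54, adjusted p = 0.672), where 4 sites or 0.116% of those tested passed. The longest segment that all 8 lists shared, 72 bp at chr2:163400297-163400368, holds all but the last base of the match TGCCCTTTGCCCT. This match is the reverse complement of an AGGTCA repeat with 2 mismatches. A shorter segment, 64 bp at chr2:163400743-163400806, was shared by all 8 lists too. The letters TAAAGTCCA, 1 mismatch from the HNF4 core, lie at chr2:163400735-163400743 and reach the first base of this shorter segment.

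**Figure D2:**
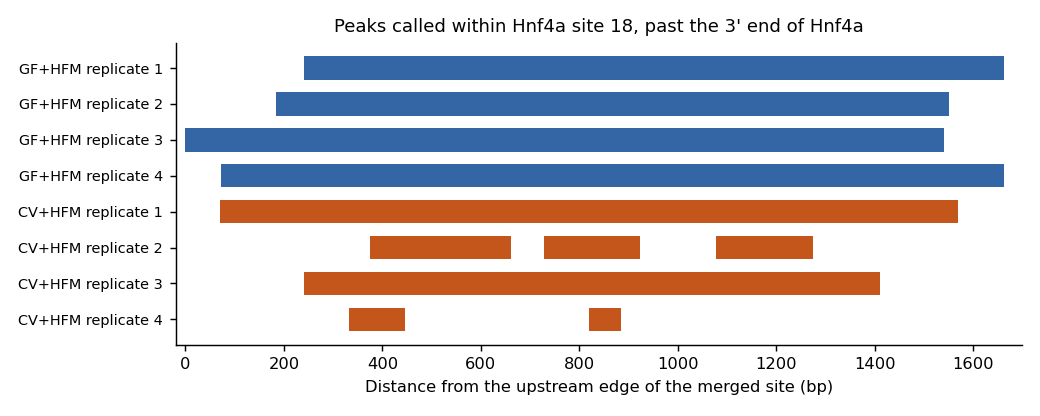
Extent of each peak called within Hnf4a site 18, in bp from the upstream edge of the merged site, for the 4 GF+HFM lists (blue) and the 4 CV+HFM lists (orange). A single peak of 1170 bp or more spans the site in 6 lists, while CV+HFM replicates 2 and 4 hold 3 and 2 narrow peaks inside the same interval.

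Farther downstream, Hnf4a site 23 (chr2:163419258-163420302), 20612 bp past the gene end and in no annotated gene, was called in 7 lists. Its width percentiles were 78.8, 69.1, 90.9 and 93.9% in GF+HFM replicates 1 to 4 and 72.4, 52.9 and 53.6% in CV+HFM replicates 1 to 3. One of these 3 CV+HFM values lay inside the range of the GF+HFM replicates and the others below it. Other sites of the window overlapped neighbouring genes, so that they too cannot be assigned to Hnf4a by position. Hnf4a site 2 covered the start of Fitm2, which encodes a lipid droplet protein, 34061 bp upstream of Hnf4a, and had peaks in every GF+HFM list and 2 CV+HFM lists. Hnf4a sites 24 to 27 overlapped Ttpal, which encodes a protein related to the tocopherol transfer protein. Within the exons of Hnf4a-001, Hnf4a site 12 overlapped exon 3 with a peak in GF+HFM replicate 3 only, and Hnf4a site 17 overlapped the last exon and had peaks in every GF+HFM list and 2 CV+HFM lists.

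At Hnf4g the sites gathered in the long first intron. Of 12 sites, 10 lay in intron 1 of Hnf4g-001, 1 over the first exon of Hnf4g-002 and 1 at 4059 bp upstream of the gene, and none lay in the rest of the gene or in the 50 kb after it. The start shared by Hnf4g-001 and Hnf4g-201 had no site within 1 kb, and the nearest, Hnf4g site 2, had a peak in GF+HFM replicate 1 and no other list. The upstream Hnf4g site 1 was called in all 4 GF+HFM lists and in CV+HFM replicate 1.

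Hnf4g site 12 (chr3:3633895-3634423) covered the start of Hnf4g-002, an internal start that begins with an alternative coding exon, and was called in all 4 GF+HFM lists and in no CV+HFM list. Its peaks were 403, 186, 529 and 252 bp wide in GF+HFM replicates 1 to 4, at width percentiles of 67.8, 11.2, 69.3 and 9.08%. GF+HFM replicates 2 and 4 thus held narrow peaks there, and replicates 1 and 3 wide ones. The printed segment of Hnf4g site 12 runs from the annotated start codon across the coding part of the exon into the intron and holds 1 match to the HNF4 core with 1 mismatch.

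The sites with the highest mean GF+HFM width percentiles in the Hnf4g window lay in the intron upstream of this start. The longest merged site, Hnf4g site 4 at 874 bp, stood at 8.92, 21.2, 10.6 and 87.5% in GF+HFM replicates 1 to 4 and at 70.03% in CV+HFM replicate 1. Hnf4g site 8 (chr3:3618279-3619126), 15024 bp before the Hnf4g-002 start, stood at 87.7, 66.1, 91.8 and 82.1% in GF+HFM replicates 1 to 4 and at 79.4 and 66.9% in CV+HFM replicates 1 and 3, so that these 2 CV+HFM values overlapped those of GF+HFM. Hnf4g site 9 (chr3:3621681-3622342), 11808 bp before that start, stood at 69.6, 41.1, 61.9 and 75.0% in GF+HFM and at 47.3 and 19.1% in the same 2 CV+HFM replicates. CV+HFM replicates 2 and 4 had no peak in the whole Hnf4g window.

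**Figure D3:**
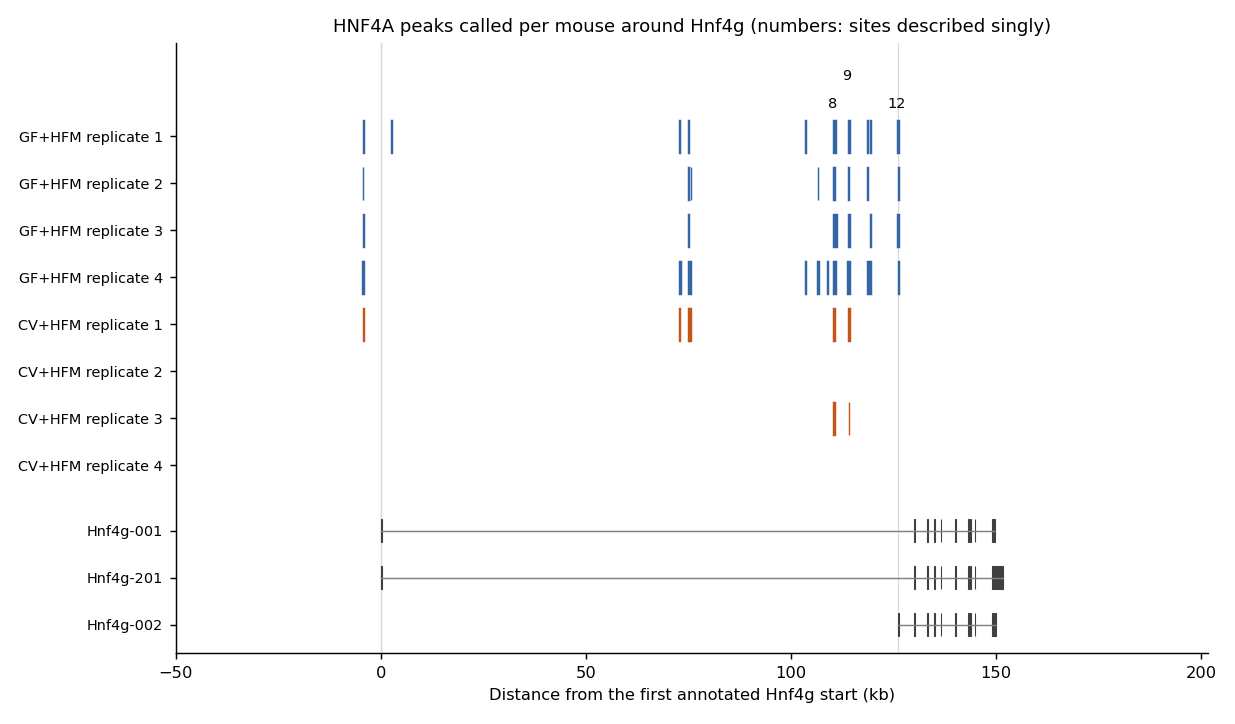
Peaks called in each list (bars, blue for GF+HFM and orange for CV+HFM) and the 3 annotated Hnf4g transcripts (grey, exons as boxes) against the distance from the first annotated start in kb. The peaks cluster before the internal start of Hnf4g-002, where Hnf4g site 12 is called in the 4 GF+HFM lists only, and CV+HFM replicates 2 and 4 are empty.

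The first comparison asks whether microbial colonization goes with fewer HNF4A sites at these genes after the meal. At both genes the GF+HFM lists held the larger number. In the Hnf4a window, 20, 19, 21 and 19 sites were called in GF+HFM replicates 1 to 4 and 16, 3, 7 and 1 in CV+HFM replicates 1 to 4. The means were 19.75 ± 0.957 and 6.75 ± 6.65 sites (SD, n = 4 each), the groups did not overlap, and the difference of -13 sites was past the threshold (exact permutation test over 70 relabellings, two-sided, p = 0.0286, the smallest the design allows). In the Hnf4g window, 10, 7, 6 and 11 sites were called in GF+HFM and 5, 0, 2 and 0 in CV+HFM. The means were 8.5 ± 2.38 and 1.75 ± 2.36 sites, again without overlap (difference -6.75, exact permutation test, p = 0.0286). Over the whole genome the groups did not overlap either. GF+HFM lists called 29141 to 34812 merged sites and CV+HFM lists 4087 to 27697. Without any one of the GF+HFM replicates 1 to 4 both differences missed the threshold, at -13.7 to -12.6 sites for Hnf4a (p = 0.0571 each) and -7.58 to -6 sites for Hnf4g (p = 0.0571 to 0.0857, exact permutation tests), and without any one CV+HFM replicate both passed.

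The lists themselves differed in length in the same direction. GF+HFM lists ran from 31061 to 36846 peaks, and those of CV+HFM replicates 1 to 4 had 29345, 9206, 21033 and 4533, and the part of list length in the counts at Hnf4a and Hnf4g cannot be told apart from that of colonization. As a percent of the merged sites that a list called, the Hnf4a window held 0.0575, 0.0652, 0.0639 and 0.0563% in GF+HFM and 0.0578, 0.0343, 0.0355 and 0.0245% in CV+HFM. Here CV+HFM replicate 1 fell inside the GF+HFM range and the other replicates below it, and the difference did not pass the test (-0.0227 percentage points, exact permutation test, p = 0.0857). For Hnf4g the values were 0.0287, 0.0240, 0.0183 and 0.0326% in GF+HFM and 0.0181, 0, 0.0101 and 0% in CV+HFM (-0.0189 percentage points, exact permutation test, p = 0.0286), with CV+HFM replicate 1 just below the lowest GF+HFM replicate. The Hnf4a difference passed without CV+HFM replicate 1 (-0.0293 points, p = 0.0286), and the Hnf4g difference missed the threshold without any GF+HFM replicate or CV+HFM replicate 2 or 4 (-0.0213 to -0.0165 points, p = 0.0571 to 0.0857, exact permutation tests). When each list was cut to its 4533 widest peaks, the length of the shortest, 6 sites were left in the windows. The means were 1.75 sites in GF+HFM and 1.5 in CV+HFM at Hnf4a, and 0.5 and 0 at Hnf4g. The differences were -0.25 sites at Hnf4a (p = 1) and -0.5 sites at Hnf4g (p = 0.429, exact permutation tests). With so few sites left, differences as large as those of the full lists could not appear.

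**Figure D4:**
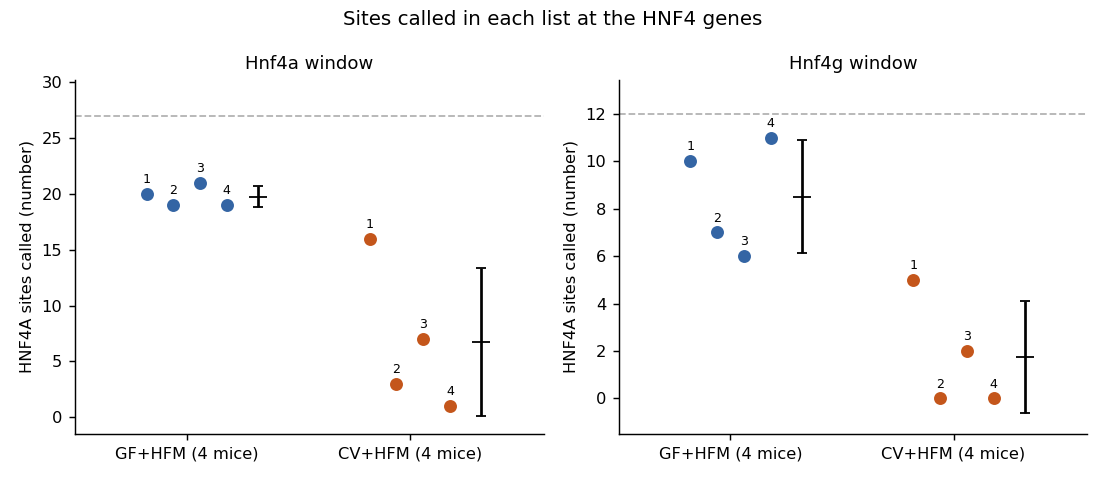
Number of merged HNF4A sites called in each list in the Hnf4a and Hnf4g windows; points are mice with their replicate number, bars give the mean ± SD (n = 4 mice) and the dashed line marks the 27 and 12 sites of the windows. The CV+HFM points lie below every GF+HFM point in both windows, and they spread from 1 to 16 sites at Hnf4a and from 0 to 5 at Hnf4g.

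The length covered by peaks followed the counts. It was 7.71, 6.56, 9.55 and 10.7 kb in GF+HFM replicates 1 to 4 and 5.86, 1.02, 2.74 and 0.178 kb in CV+HFM replicates 1 to 4 of the 166.103 kb Hnf4a window (exact permutation test, p = 0.0286), and 2.90, 1.80, 2.62 and 4.83 kb against 1.88, 0, 0.526 and 0 kb of the 251.746 kb Hnf4g window (exact permutation test, p = 0.0571). The 2 windows were also set against each other. The percent of window sites called was higher at Hnf4a than at Hnf4g by 2.31 ± 21.9 points in GF+HFM and by 10.4 ± 5.73 points in CV+HFM (SD, n = 4 each), a change of 8.10 points (exact permutation test, p = 0.514). With peaks of at least 300 bp only, this contrast turned, from 27.8 points in GF+HFM to 0 points in CV+HFM (exact permutation test, p = 0.0286), so no order of the genes in their difference between conditions is given.

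Site by site, GF+HFM lists with a call outnumbered CV+HFM lists at 37 of the 39 (94.9%), beside 86.5% of all merged sites. The exceptions were Hnf4a site 5, called in CV+HFM replicate 1 alone, and Hnf4a site 18, called in all lists. Fisher's exact test, two-sided, gave p = 0.0286, the smallest possible, at the 3 sites called in 4 GF+HFM and 0 CV+HFM lists, Hnf4a site 4, Hnf4a site 6 and Hnf4g site 12. This was 7.69% of the 39 sites, beside 2.79% of all 45552 sites in that direction and 0.0% in the other. Among sites called in all 4 GF+HFM lists, 3 of 19 (15.8%) in the windows had no CV+HFM call, beside 5.51% of all such sites. No site passed after Benjamini-Hochberg adjustment over all sites, at Hnf4a and Hnf4g or elsewhere (smallest adjusted p = 0.824), and at an unadjusted p under 0.05 the count was 1269. With 4 lists per condition, Fisher's test could pass this adjustment only if most sites had the smallest possible p. The adjusted result therefore decides nothing. Without CV+HFM replicate 1, which had the longest CV+HFM list, 10 sites of the windows instead of 3 were called in every GF+HFM and no CV+HFM list, and without GF+HFM replicate 3 there were 5. Over the genome the count moved the same way, from 1269 of 45552 sites to 4871 of 44610 and 1766 of 43721.

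The sites called in all 4 GF+HFM lists were then followed into each CV+HFM list. Of 14 such sites at Hnf4a, CV+HFM replicates 1 to 4 called 12, 3, 7 and 1, and of 5 at Hnf4g they called 4, 0, 2 and 0. As percents these were 85.7, 21.4, 50.0 and 7.14% for Hnf4a and 80.0, 0, 40.0 and 0% for Hnf4g, beside 91.6, 37.1, 78.0 and 17.0% of the 23049 sites of this kind. The difference from the rest of the genome was not tested.

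Over both windows together, the median width percentile of the sites lay below that of all sites in 5 lists and above it in 3. It was 42.2, 38.8, 35.7 and 34.2% in GF+HFM replicates 1 to 4, where all sites had medians of 51.0, 51.1, 50.6 and 50.4%, and 36.4% in CV+HFM replicate 1, where all sites had 50.8%. In CV+HFM replicates 2 to 4 it was 52.9, 53.6 and 55.5%, over 3, 9 and 1 sites, where all sites had 51.2, 51.3 and 54.1%. The median merged site spanned 376 bp in the windows and 437 bp over the genome.

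**Figure D5:**
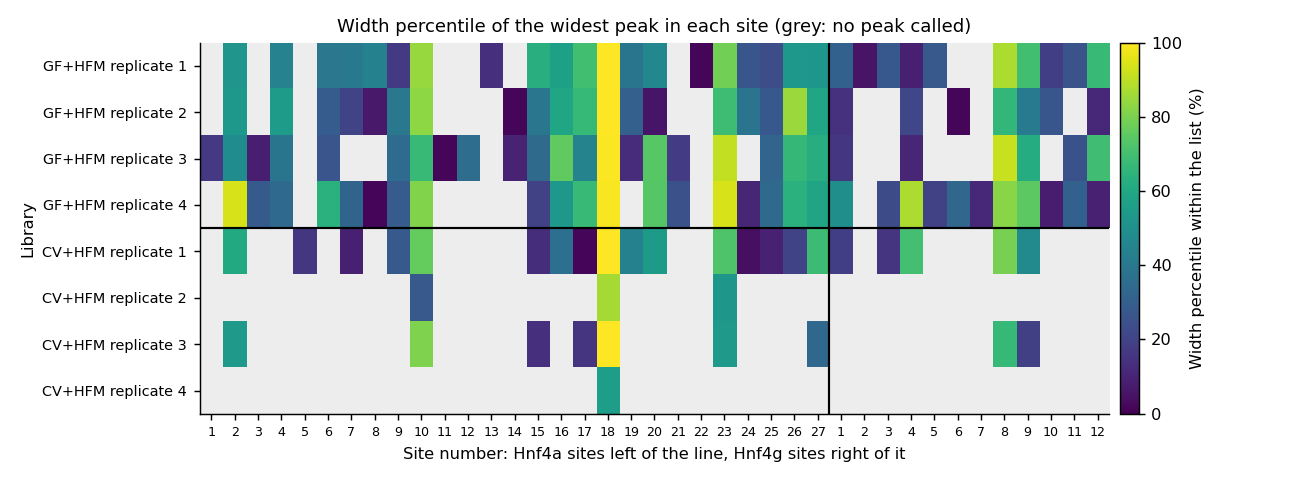
Width percentile (colour, %) of the widest peak of each list (rows) in each of the 39 sites (columns, Hnf4a sites 1 to 27 and then Hnf4g sites 1 to 12), with grey where no peak was called. Hnf4a site 18 is the one column filled in all 8 rows and stays at 99.0% or above in the 4 GF+HFM lists, and most columns are empty in CV+HFM replicates 2 and 4.

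Matches to the letters that HNF4 factors and their partners bind were counted in every site. Windows of 300 bp were placed at the longest segment covered by the most lists. In them, CAAAGTCCA on either strand with at most 1 mismatch occurred in 15 of 39 sites (38.5%), beside 36.9% of 45324 windows over the genome. The exact letters occurred in 1 of 39 (2.56%), Hnf4g site 7, with a peak in GF+HFM replicate 4 only, beside 6.36%. The AGGTCA repeat with at most 2 mismatches, which can overlap a match to the core, occurred in 4 of 39 (10.3%), Hnf4a sites 2, 17, 18 and 27, beside 16.6%. The GATA letters AGATAA occurred in 11 of 39 (28.2%), beside 22.1%. The HNF1 palindrome, GTTAAT and its reverse complement with 1 base between, at most 2 mismatches, occurred in 0 of 39, beside 2.76%. The median GC content was 48.0% in the windows at Hnf4a and Hnf4g and 48.3% over the genome.

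Hnf4a was among the genes with the most sites. Its 27 sites were more than 99.7% of 22380 protein-coding genes had in windows made the same way, where the median was 3 sites, and per 100 kb of window its 16.3 sites exceeded 99.0% of them. Hnf4g, with 12 sites or 4.77 per 100 kb, exceeded 88.4% in number and 68.0% per 100 kb. Ppara, the receptor of fatty acids that drives fatty acid oxidation, also had 27 sites, at 16.1 per 100 kb.

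Among 17 known regulators and partners of HNF4, 13 had a site within 1 kb of a start, 11 of them in all 4 GF+HFM lists, and the median was 11 sites in the window. Cdx2, a factor of intestinal identity, had 11. Of 6 PPAR and RXR genes, 4 had a site at a start, with a median of 11.5 sites. As a check of the labelled cell type by position, 9 of 10 enterocyte genes had a site at a start and 2 of 11 genes of other cells did. Those 2 were Ttr, listed for liver, and Ins2, listed for pancreas. The site at a start was called in all 4 GF+HFM lists for 8 enterocyte genes and for both of these. Of the sites called in all 4 GF+HFM lists, those with no CV+HFM call were 5 of 70 (7.14%) for the regulators, 4 of 47 (8.51%) for PPAR and RXR genes, 3 of 69 (4.35%) for enterocyte genes and 0 of 14 for genes of other cells, beside 5.51% of all sites of this kind.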

How the data were processed

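HNF4A ChIP-seq lists of jejunal IECs were used for 4 GF+HFM and 4 CV+HFM mice. The other assays and conditions of the series were not used here. Per the methods, the authors aligned reads with Bowtie2 to mm9, called narrow peaks per mouse with MACS2 2.1.1.20160309 (false discovery rate below 0.05, bandwidth 300 bp) against 1 input per condition, and deposited positions in bp without pooling mice. The deposited lists hold no count, height, summit or p-value, so depth is unknown, no counting interval can be given, and width rank stood in for strength. A wide peak also reflects neighbouring sites that run together and the threshold, and deeper libraries give more and wider peaks.

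Starts were converted to count from 1. Peaks sharing at least 1 bp were merged, and a list called a site when it held any of its peaks. The build was checked against NCBIM37 on 21 chromosomes (0 peaks beyond an end), and 226 sites on 9 names absent from that reference got no gene or sequence. No 2 lists were identical. Mice are the replicates. Calls per list were compared by exact permutation over 70 relabellings, sites by Fisher's exact test with Benjamini-Hochberg adjustment over 45552 sites, and width rank with limma 3.58.1 (R 4.3.3), on normal scores. On simulated data of 3445 sites with 200 shifted by 4 SD, limma recovered 100% of them, and 5.66% of its calls were false. This checks the calculation at a large shift only. Power at smaller shifts, or at the spread of the CV+HFM lists, was not tested. The threshold was 0.05. Scripts used Python 3.11.15, scipy 1.17.1, pysam 0.24.0 and matplotlib 3.10.9.

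Described singly were sites within 1 kb of an annotated start of either gene, called in all 8 lists, with Fisher p below the threshold, or among the 3 widest of a window by mean GF+HFM percentile. Hnf4a site 10 was added to the printed sequences after its values were seen. The genes, sites and gene lists were chosen with earlier results of these data known. Alternatives were each list left out, peaks of at least 300 bp, the widest peaks, at least 50% of a site covered, gene bodies alone, 25 or 100 kb either side, the replicate number as a block, motif windows at site midpoints and, added after the data were seen, leaving out CV+HFM replicates 2 and 4.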

Additional observations from a re-analysis of the deposited data

How the results depend on the processing

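Fewer sites were called in CV+HFM at both genes under every alternative run, but the p-values often moved across 0.05. Leaving out 1 list gave differences of -16.1 to -11.1 sites at Hnf4a and -7.83 to -6 at Hnf4g, with p from 0.0286 to 0.0571 and to 0.0857, and the call was lost without any one of the GF+HFM replicates. For the percent of a list's sites the range was -0.0293 to -0.0182 points at Hnf4a, past the threshold only without CV+HFM replicate 1 among these, and -0.0225 to -0.0165 at Hnf4g. Window sites with different calls ranged from 3 to 10. Without CV+HFM replicates 2 and 4 together, where p cannot go below 0.0667, the values were -8.25 and -5 sites, and -0.0141 and -0.0118 points. With peaks of at least 300 bp they were -2.75 sites (exact p = 0.20) and -0.00834 points for Hnf4g, -0.0430 points for Hnf4a (exact p = 0.0286) and -27.8 points for Hnf4a minus Hnf4g. With the widest peaks they were -0.25 sites for Hnf4a, -0.5 sites and -0.0111 points for Hnf4g, and 0 sites with different calls of 6. With at least 50% of a site covered they were -5.5 sites and -0.0167 points for Hnf4g, -0.0422 points for Hnf4a (exact p = 0.0286) and -6.94 points for the contrast of the genes (exact p = 0.657). With 25 kb either side, the percent at Hnf4a was -0.0144 points (exact p = 0.0286). The p-values here are from exact permutation tests, and the cause of these changes was not tested. Width rank could be tested with limma at few sites of the windows, 1 in most settings, 3 without CV+HFM replicate 4 or with 100 kb either side, 9 without CV+HFM replicates 2 and 4, and none with peaks of at least 300 bp, at least 50% of a site covered or gene bodies alone. Of those tested 0 passed after adjustment, and 1 of the 9 had an unadjusted p under 0.05.

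With the replicate number as a replicate block, the differences stayed at -13 and -6.75 sites and -0.0189 points for Hnf4g, with p = 0.125, the smallest that 16 exact relabellings allow. Lists with the same number had correlations of -0.0535 to 0.0582 over sites, and lists with different numbers -0.150 to 0.141. These values cannot show whether the replicate numbers pair the mice. The repeat motif was found in 2 sites instead of 4 with windows at site midpoints. Depth is unknown, so a site without a call is a site not detected in that list.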
